A study of Mus musculus with 7 samples.

Results

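The genes described here encode the proteins of the mitochondrial ribosome, taken as every gene whose symbol begins with Mrpl or Mrps and a digit. Of 18193 genes represented on the arrays, 76 belonged to this group, 47 of the large subunit (Mrpl) and 29 of the small subunit (Mrps). Each gene was read from its brightest probe set, by mean level on the 7 arrays, among those annotated to 1 gene symbol, so that 76 of the 156 probe sets of these genes were used. Of the 78 protein-coding RefSeq genes with such a symbol, Mrpl30 and Mrpl53 had only probe sets shared with a second gene and were not analysed here. Every one of the 47 large and 29 small subunit genes had a mean level above that of the median gene, 6.64 on the log2 scale.

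Tumour cells carrying Cd34 and Epcam had been sorted from mouse skin tumours raised with DMBA, a carcinogen, and TPA, a tumour promoter. Carcinomas, the malignant form, gave 4 arrays, numbered 1, 2 and 3 and tagged GFP. Papillomas, the benign form, gave 3 arrays, numbered 1 and 2 and tagged GFP. Both tumour types were thus raised with the same chemicals and sorted on the same antigens, and the sample descriptions of both put Nr2f2 before the tumour type without stating a genotype, strain, age or sex. The labels do not explain the GFP tag, and they state neither separate animals nor pools, so p-values cover the spread among these samples alone, which may be technical. All values are log2 levels as normalized by the authors with RMA, so that a difference of 1 is a doubling, and the number of arrays limits their precision.

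Mitochondria keep a small genome of their own, and its protein-coding genes specify core subunits of the respiratory chain and ATP synthase. These are translated by a dedicated ribosome, whose small subunit reads the messenger RNA and whose large subunit joins the amino acids and feeds the chain towards the inner membrane. All proteins of this ribosome are encoded in the nucleus, made in the cytosol and imported. Some have bacterial counterparts and others occur only in mitochondria. Symbols are historical: the products of Mrps30 and Mrps18a sit in the large subunit of the mammalian particle, and that of Mrps36 is now assigned to the 2-oxoglutarate dehydrogenase complex.

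The 2 GFP-tagged arrays stood apart from the other 5 before any gene of this group was considered. The Gapdh control signal at the 3′ end exceeded that at the 5′ end, a gap that widens when target RNA is short, by 3.193 and 3.189 in carcinoma GFP and papilloma GFP, against -0.043 to 0.062 in the untagged arrays. The mean level of 10 endothelial markers was 10.83 to 11.02 in the GFP-tagged and 5.31 to 5.84 in the untagged arrays, and that of 10 fibroblast markers 11.02 to 12.01 and 6.09 to 7.96. Myeloid markers (8 genes) averaged 7.12 to 7.45 and 5.31 to 6.28, T cell markers (5 genes) 5.83 to 6.25 and 5.24 to 5.87, and melanocyte markers (6 genes) 6.02 to 6.22 and 4.82 to 5.78. The 10 keratinocyte markers averaged 10.78 to 10.96 in the GFP-tagged and 11.67 to 12.38 in the untagged arrays, and Epcam, an antigen of the sort, averaged 8.94 and 11.39. Each result below is therefore given by tumour type and by tag.

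**Figure D1:**
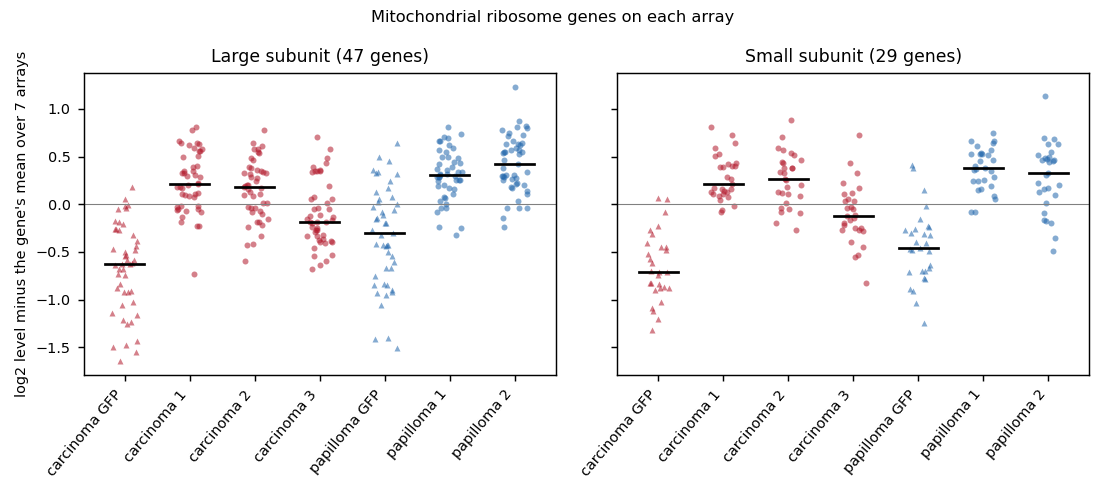
Log2 level of each gene minus its own mean over the 7 arrays, for the 47 large subunit genes (left) and the 29 small subunit genes (right). Points are genes, triangles mark GFP-tagged arrays, red is carcinoma, blue is papilloma, and black bars are medians. The carcinoma GFP array is lowest in both panels, with papilloma GFP and carcinoma 3 next.

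The mean level of the 47 large subunit genes was 8.85 in carcinoma GFP, 9.75, 9.67 and 9.41 in carcinoma 1, 2 and 3, 9.18 in papilloma GFP, and 9.82 and 9.94 in papilloma 1 and 2. The mean of the 29 small subunit genes was 8.67 in carcinoma GFP, 9.60, 9.58 and 9.22 in carcinoma 1, 2 and 3, 8.88 in papilloma GFP, and 9.70 and 9.61 in papilloma 1 and 2. In both subunits the 2 GFP-tagged arrays were lowest, carcinoma 3 came next, and the other 4 arrays lay together above them. Gene by gene, carcinoma GFP held the lowest of the 7 values for 30 large and 21 small subunit genes, and papilloma 2 held the highest for 23 and 10.

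Genes of the mitochondrial ribosome were lower in the GFP-tagged than in the untagged arrays in both subunits. Of the large subunit genes, 42 of 47 had a lower level and 20 fell at an adjusted p below 0.05, with a median difference of -0.71 over all 47. Of the small subunit genes, 27 of 29 had a lower level and 15 fell, with a median of -0.84. Higher levels at this threshold were found for 0 of the 76. The test was limma with tumour type as a covariate and Benjamini-Hochberg adjustment over all 18193 genes. Of these genes 7.93% were called lower and 11.9% higher, with a median of -0.05. These shares include dim genes, whereas all 76 members lie above the median gene. A fit of only the genes above the median gene called 2552 in either direction, against 3601 over all genes. That fit tested fewer genes, so the 2 counts cannot be compared as shares. It again called 20 large and 15 small subunit genes lower. The share of all brighter genes called lower was not determined. The 2 GFP-tagged arrays lay below all 5 untagged arrays for 26 large and 19 small subunit genes, where this held for 19.9% of all genes.

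The calls by tag depended on the few tagged arrays. Over both subunits, 35 genes fell with all 7 arrays, 7 without carcinoma GFP and 12 without papilloma GFP, where a single tagged array is assumed to vary like the others, and 22 without carcinoma 2. Calls over all genes, in either direction, numbered 3601 with all 7 arrays and 861, 1462 and 2632 in the same order of omission. Relative to each array's median gene, which lay higher in the tagged arrays, the median differences were -0.94 for the large and -1.07 for the small subunit genes, and 48 genes fell. That scaling moved the median of all genes by tag to -0.29 and called 13.4% of all genes lower and 9.67% higher. Because the tag moved together with the markers of other cell types and with the 3′ to 5′ difference given above, their part in these differences was not tested, and fewer tumour cells and less RNA per cell cannot be told apart in sorted bulk samples.

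**Figure D2:**
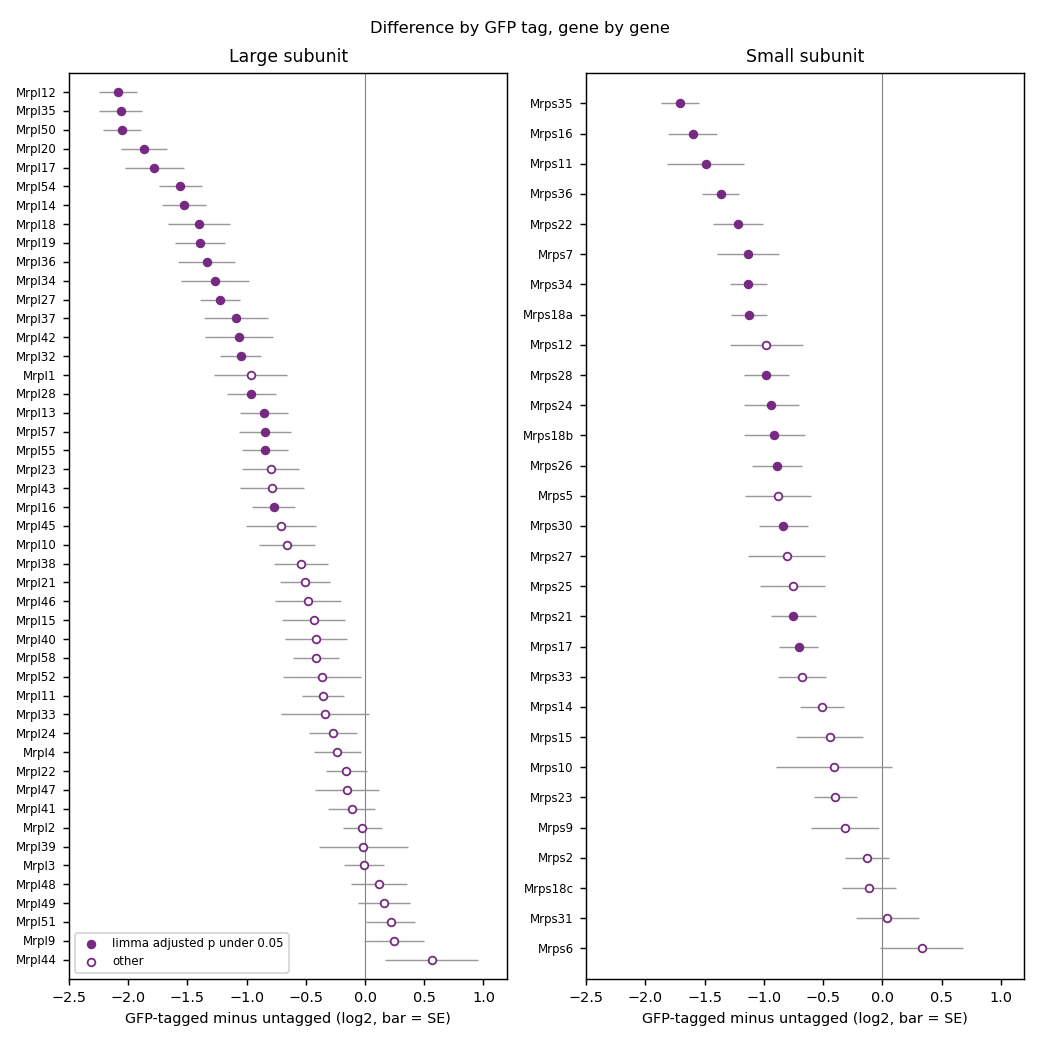
Difference between GFP-tagged (n = 2) and untagged (n = 5) arrays, adjusted for tumour type, for each large (left) and small (right) subunit gene, ordered by size. Bars are standard errors and filled points have a limma adjusted p below 0.05. The differences run from -2.09 for Mrpl12 to 0.56 for Mrpl44, and all 35 filled points lie below 0.

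Among large subunit genes, Mrpl12 encodes the counterpart of the bacterial stalk protein that recruits translation factors, and it had the largest difference by tag. Its level was 8.495 in carcinoma GFP with 8.648 in papilloma GFP, against 10.63, 10.60 and 10.40 in carcinoma 1, 2 and 3 and 10.78 and 10.77 in papilloma 1 and 2. The 5 untagged arrays lay close together and well above both tagged ones. The difference was -2.09 (SE 0.16, limma adjusted p = 0.000341), a level lower by a factor of 4.24.

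Mrpl35 and Mrpl50 were likewise low on both tagged arrays. Mrpl35, which has a bacterial counterpart, had levels of 8.270 in carcinoma GFP with 8.200 in papilloma GFP, against 10.35, 10.34 and 10.07 in carcinoma 1, 2 and 3 and 10.21 and 10.51 in papilloma 1 and 2 (difference -2.07, SE 0.18, limma adjusted p = 0.000618). Mrpl50, a protein of the mitochondrial particle without a bacterial counterpart, had 6.86 in carcinoma GFP with 6.94 in papilloma GFP, against 8.87, 8.96 and 8.79 in carcinoma 1, 2 and 3 and 9.17 and 8.90 in papilloma 1 and 2 (difference -2.05, SE 0.16, limma adjusted p = 0.000423). On the probe sets used, the tagged arrays of both genes lay close to each other and below every untagged array. The second Mrpl50 probe set, nearly as bright at a mean level of 8.01 against 8.36, did not show this fall and differed by 0.13. Mrpl20, counterpart of a bacterial protein of early subunit assembly, differed by -1.87 (SE 0.20, limma adjusted p = 0.00125). The calls for Mrpl12, Mrpl35, Mrpl50 and Mrpl20 held with any 1 of the 7 arrays left out. That for Mrpl35 ended when its 3 probe sets were averaged (difference -0.71). The other Mrpl35 probe sets were dim, with mean levels of 5.52 and 4.91 against 9.71 for the one used.

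Small subunit genes gave smaller extremes. Mrps35, a protein specific to mitochondria, had 8.23 in carcinoma GFP with 8.19 in papilloma GFP, against 10.08, 9.90 and 9.86 in carcinoma 1, 2 and 3 and 9.80 and 9.98 in papilloma 1 and 2 (difference -1.71, SE 0.16, limma adjusted p = 0.000796). Mrps16, which has a bacterial counterpart, had 8.70 in carcinoma GFP with 9.13 in papilloma GFP, against 10.17, 10.28 and 10.13 in carcinoma 1, 2 and 3 and 10.54 and 11.15 in papilloma 1 and 2 (difference -1.60, SE 0.21, limma adjusted p = 0.00306). Tagged and untagged arrays did not overlap in either gene. The Mrps16 call ended without carcinoma GFP, where the difference was -1.72. Mrps11, which in bacteria lies near the messenger RNA channel, differed by -1.49 (SE 0.33, limma adjusted p = 0.0209), and its call ended without either GFP-tagged array and when its probe sets were averaged (-0.63). The other Mrps11 probe set was dim, with a mean level of 4.585 against 8.095 for the one used. Mrps36 differed by -1.36 (SE 0.16, limma adjusted p = 0.00178).

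The paralogues Mrps18a, Mrps18b and Mrps18c, descended from one bacterial protein and placed at different sites of the particle, were not alike in their calls. Mrps18a fell by 1.13 (SE 0.15, limma adjusted p = 0.00354) and Mrps18b by 0.91 (SE 0.26, limma adjusted p = 0.0489), whereas Mrps18c differed by -0.11 (SE 0.23, limma adjusted p = 0.787). Mrps18c had 9.74 in carcinoma GFP with 10.59 in papilloma GFP. Untagged levels were 10.15, 9.94 and 10.24 in carcinoma 1, 2 and 3 and 10.13 and 10.68 in papilloma 1 and 2. Carcinoma GFP thus lay below every untagged array, whereas papilloma GFP lay within the untagged range. The Mrps18a and Mrps18b calls each ended without either GFP-tagged array, and that of Mrps18b with 4 other arrays left out. Differences between the paralogues were not tested.

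A total of 7 members had a higher level in the tagged arrays, and none of these passed the threshold. They were Mrpl44, which carries a ribonuclease-like fold, at 0.56 (SE 0.39, limma adjusted p = 0.38), Mrpl9 at 0.25, Mrpl51 at 0.22, Mrpl49 at 0.16 and Mrpl48 at 0.12 in the large subunit, and Mrps6 at 0.33 and Mrps31 at 0.04 in the small subunit. The probe set chosen mattered here. Of these 7 genes, 6 had another probe set that was lower in the tagged arrays by more than 0.5. The lowest gave -1.86 for Mrpl9, -1.33 for Mrpl44, -1.21 for Mrps6, -1.18 for Mrpl51, -1.10 for Mrpl49 and -0.80 for Mrpl48. For 3 of them it was much dimmer than the one used, with mean levels of 7.30 against 9.28 (Mrpl9), 7.22 against 9.30 (Mrpl44) and 6.708 against 11.455 (Mrpl51). The levels were closer for Mrps6 (8.70 against 9.97), Mrpl49 (8.43 against 8.72) and Mrpl48 (8.797 against 8.955). A second bright Mrpl44 probe set, at 9.22, was higher in the tagged arrays by 0.88. Among the 42 members with several probe sets, 17 had probe sets that disagreed in sign by tag with a gap over 0.5. Mrpl50 was one of them, at -2.05 on the brighter and 0.13 on the dimmer of its 2 probe sets (mean levels 8.36 and 8.01).

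Promoter windows were then searched for motifs of factors known from nuclear genes of mitochondria. RefSeq promoter windows of assembly GRCm38.p6, from 250 bases before to 50 after the start, were found for 67 of the 76 genes (73 windows) and for 14452 of all genes (18109 windows). Both strands were searched, and windows may hold several motifs. The ETS core CCGGAAG, read by the nuclear respiratory factor Gabpa, occurred in 34.2% of the members' windows and 13.0% of all windows. The Nrf1 motif, read as GCGC, any base and then TGCGC, occurred in 16.4% and 7.43%, and the Yy1 motif AAGATGGC in 16.4% and 3.38%. The Sp1 core GGGCGG was found in 53.4% and 52.3%, and TATAAA in 6.85% and 9.77%. By subunit, the ETS core lay in 14 of 46 large and 11 of 27 small subunit windows, the Nrf1 motif in 9 and 3, and the Yy1 motif in 6 and 6. Among the 30 windows of genes that fell by tag, 11 held the ETS core, 7 the Nrf1 motif and 9 the Yy1 motif, against 14, 5 and 3 of the 43 windows of the other members. All windows include those of dim genes, whereas every member lies above the median gene, and genes with several windows count more than once. A match is a description of letters and not of a bound site.

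These 5 windows are shown 5′ to 3′ on the gene's strand. Mrpl12 and Mrpl35 were chosen for the largest differences by tag, and Mrpl41 for the smallest p by tumour type. Mrps11 was chosen for a promoter shared by 2 members, and Mrps18a for 2 kinds of motif. Capitals mark matches to the ETS, Nrf1 and Yy1 motifs on either strand.
Mrpl12, chr11:120484387-120484686, plus strand: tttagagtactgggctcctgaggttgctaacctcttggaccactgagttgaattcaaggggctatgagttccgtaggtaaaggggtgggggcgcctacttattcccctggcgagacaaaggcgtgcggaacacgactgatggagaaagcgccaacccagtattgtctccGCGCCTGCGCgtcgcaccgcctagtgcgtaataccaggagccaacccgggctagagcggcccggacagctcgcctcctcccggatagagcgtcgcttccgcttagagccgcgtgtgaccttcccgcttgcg
Mrpl35, chr6:71823735-71824034, minus strand: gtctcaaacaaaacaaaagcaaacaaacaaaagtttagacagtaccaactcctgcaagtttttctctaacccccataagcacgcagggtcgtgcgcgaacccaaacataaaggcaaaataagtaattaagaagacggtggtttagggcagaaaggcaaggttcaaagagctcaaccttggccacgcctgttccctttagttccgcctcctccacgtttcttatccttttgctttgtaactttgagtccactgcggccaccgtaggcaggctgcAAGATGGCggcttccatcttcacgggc
Mrps11, chr7:78782881-78783180, plus strand: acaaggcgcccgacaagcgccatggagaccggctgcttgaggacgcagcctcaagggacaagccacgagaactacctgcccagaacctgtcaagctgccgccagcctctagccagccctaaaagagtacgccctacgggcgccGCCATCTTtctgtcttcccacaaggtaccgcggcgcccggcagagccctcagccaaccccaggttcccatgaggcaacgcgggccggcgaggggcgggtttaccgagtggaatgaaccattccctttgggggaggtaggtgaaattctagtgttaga
Mrps18a, chr17:46110754-46111053, plus strand: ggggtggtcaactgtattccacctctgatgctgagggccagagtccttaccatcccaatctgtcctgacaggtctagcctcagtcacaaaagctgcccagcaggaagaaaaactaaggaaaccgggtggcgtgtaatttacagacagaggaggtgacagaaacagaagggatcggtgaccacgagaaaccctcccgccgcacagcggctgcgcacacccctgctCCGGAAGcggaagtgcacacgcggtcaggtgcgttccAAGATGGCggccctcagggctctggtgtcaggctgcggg
Mrpl41, chr2:24975049-24975348, minus strand: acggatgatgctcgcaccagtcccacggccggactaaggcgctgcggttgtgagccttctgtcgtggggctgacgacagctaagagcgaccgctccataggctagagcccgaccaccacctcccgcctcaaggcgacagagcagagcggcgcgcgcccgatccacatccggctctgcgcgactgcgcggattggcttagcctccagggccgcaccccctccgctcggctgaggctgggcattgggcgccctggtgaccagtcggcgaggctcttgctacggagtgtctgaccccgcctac

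Members often shared their upstream region with another gene. A start on the opposite strand within 1000 bases upstream was listed for 27 of the 73 windows (37.0%) and for 14.7% of all windows, and the members lay on 17 chromosomes. These shares too are per window, and all windows include those of dim genes. Mrps11 of the small subunit and Mrpl46 of the large subunit start 42 bases apart in opposite directions, with the Mrps11 window above spanning both starts. Despite this common region their values by tag were not the same. Mrps11 had 7.01 in carcinoma GFP with 7.06 in papilloma GFP, against 8.91, 8.79 and 7.82 in carcinoma 1, 2 and 3 and 8.76 and 8.32 in papilloma 1 and 2. Mrpl46 had 8.47 in carcinoma GFP with 8.77 in papilloma GFP, against 9.60, 9.09 and 8.62 in carcinoma 1, 2 and 3 and 8.99 and 9.18 in papilloma 1 and 2, and its difference of -0.48 (SE 0.28) was not called (limma adjusted p = 0.29). The gap between the 2 genes was not tested. Mrpl47 was paired in the same way with Ndufb5, a subunit of respiratory complex I, Mrpl49 with the ribosomal gene Fau, and Mrpl41 with Pnpla7.

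By tumour type, most members had a lower level in carcinoma than in papilloma cells, by small amounts that did not pass the test. A lower carcinoma mean was found for 42 of 47 large subunit genes, with a median difference of -0.22, and for 24 of 29 small subunit genes, with a median of -0.14, against 52.9% of all genes and a median of -0.02. The mean of the large subunit genes was 9.42 ± 0.41 (SD, n = 4) for carcinoma arrays against 9.65 ± 0.41 (SD, n = 3) for papilloma arrays, and that of the small subunit genes 9.27 ± 0.44 and 9.39 ± 0.45. Each gap was smaller than these SDs, which include the low tagged array of each tumour type and so the difference by tag. Read apart by tag, each carcinoma mean lay below each papilloma mean in both subunits. In the small subunit carcinoma 1 and papilloma 2 were nearly equal (9.603 and 9.608). This order was not tested. By limma with adjustment over all genes, 0 of 76 members and 0.0% of all genes were called. At an unadjusted p below 0.05, 2 members (Mrpl41 and Mrpl33) and 112 of all genes (0.616%) remained.

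The tumour type difference was also read with the GFP tag taken into account. With the tag as a covariate, carcinoma was lower for 47 of 47 large subunit genes (median -0.26) and 25 of 29 small subunit genes (median -0.20), with 0 members called by limma and 10 at an unadjusted p below 0.05, all lower, where 0.978% of all genes had such a p and a lower level. Within the GFP-tagged pair the medians were -0.32 for the large and -0.23 for the small subunit genes, and among the untagged arrays -0.24 and -0.20, against 0.05 and -0.05 for all genes. Without carcinoma GFP, which removes a tagged array from only 1 side, the medians were -0.06 and 0.08, with 24 large and 12 small subunit genes lower. They were -0.44 and -0.40 without papilloma GFP, -0.13 and 0.01 without papilloma 1, -0.08 and -0.01 without papilloma 2, -0.33 and -0.25 without carcinoma 1, and -0.29 and -0.27 without carcinoma 2. The interaction of tumour type and tag was called for 0 genes by limma and had an unadjusted p below 0.05 for 0 of 76 members and 2.14% of all genes.

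**Figure D3:**
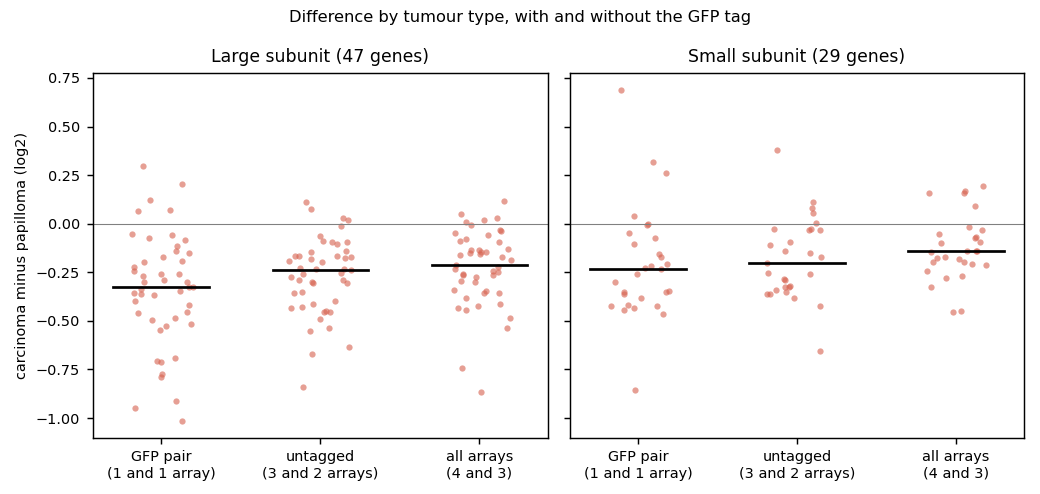
Carcinoma minus papilloma difference of each large (left) and small (right) subunit gene, within the GFP-tagged pair, among the untagged arrays and over all arrays. Points are genes and black bars are medians, which lie between -0.32 and -0.14.

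Mrpl41, a protein specific to mitochondria that is also known to bind Bcl2, had the smallest p of the group by tumour type. Its level was 9.45 in carcinoma GFP and 9.86, 9.53 and 9.67 in carcinoma 1, 2 and 3, against 10.40 in papilloma GFP and 10.14 and 10.58 in papilloma 1 and 2. All 4 carcinoma arrays lay below all 3 papilloma arrays, as for no other member, where 0.912% of all genes had carcinoma below papilloma in this way. The level averaged 9.63 ± 0.18 over the 4 carcinoma arrays and 10.37 ± 0.22 (SD) over the 3 papilloma arrays, a difference of -0.75 (SE 0.18) that was not called (limma adjusted p = 1). The exact two-sided permutation p for this gene was 0.0571, the smallest that 4 against 3 arrays allow. The difference was -0.95 within the GFP-tagged pair and -0.67 among the untagged arrays. Its other probe sets gave -0.66 and, on a dim one, -0.17.

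Mrpl33, which has a bacterial counterpart, had 8.58 in carcinoma GFP and 9.37, 8.66 and 8.94 in carcinoma 1, 2 and 3, against 9.59 in papilloma GFP and 9.18 and 10.49 in papilloma 1 and 2. Papilloma 2 stood highest, and carcinoma 1 lay above papilloma 1, so the groups overlapped. The difference was -0.87 (SE 0.35, limma adjusted p = 1, exact permutation p = 0.114). The next large subunit genes by p were Mrpl47 at -0.54 (SE 0.25), Mrpl24 at -0.43 (SE 0.21), Mrpl49 at -0.42 (SE 0.20) and Mrpl48 at -0.44 (SE 0.22), none of them called (limma adjusted p = 1). For Mrpl47 the papilloma arrays agreed closely, at 9.64 in papilloma GFP, 9.63 in papilloma 1 and 9.60 in papilloma 2. The carcinoma arrays ranged from 8.68 in carcinoma 3 to 9.63 in carcinoma 2.

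In the small subunit the smallest p without the tag in the fit belonged to Mrps18c, whose level averaged 10.02 ± 0.23 over the 4 carcinoma arrays and 10.47 ± 0.29 (SD) over the 3 papilloma arrays, giving -0.45 (SE 0.21, limma adjusted p = 1). Within the GFP-tagged pair it differed by -0.86 and among the untagged arrays by -0.29. Mrps16 differed by -0.46 (SE 0.58), Mrps17 by -0.33 (SE 0.29), Mrps14 by -0.28 (SE 0.24) and Mrps23 by -0.20 (SE 0.21). Mrps2, counterpart of a bacterial small subunit protein, lay the other way at 0.16 (SE 0.17). The order changed with the tag as a covariate, where the smallest p of the small subunit belonged to Mrps16 at -0.59 (SE 0.19), followed by Mrps36 at -0.36 (SE 0.14) and Mrps17 at -0.38 (SE 0.15), ahead of Mrps18c at -0.46 (SE 0.21). None of these was called either (limma adjusted p = 1).

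None of the interaction values of the members named here was called (limma adjusted p = 1 for each). Mrps27, whose product carries RNA-binding repeats, differed between carcinoma and papilloma by 0.69 within the GFP-tagged pair and by -0.42 among the untagged arrays. Mrps9 gave -0.42 and 0.38, Mrpl19 -0.48 and 0.11, and Mrpl57 -0.91 and -0.35. By tumour type, probe sets of Mrpl13, Mrpl15, Mrpl21, Mrpl44, Mrpl47 and Mrpl52 disagreed in sign with a gap over 0.5. For Mrpl13, Mrpl21, Mrpl47 and Mrpl52 the probe set that lay higher in carcinoma was the dimmest of the gene. The Mrpl44 probe sets higher in carcinoma (0.21 and 0.38) were dimmer than its others, whereas Mrpl15 ranged from -0.30 to 0.49 over 8 probe sets.

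Other genes of mitochondrial gene expression were set beside the ribosome by counts, to be read against the 7.93% of all genes called lower and 11.9% called higher by tag. By tag, 3 of 5 ribosome proteins with other symbols fell, among them Gadd45gip1, a large subunit protein, by 1.98 (SE 0.18, limma adjusted p = 0.000668) and Chchd1, a small subunit protein, at -0.995 (SE 0.20, limma adjusted p = 0.0155). Of 24 assembly and ribosomal RNA modification factors 4 fell, including Malsu1, a large subunit assembly factor, by 1.37 (SE 0.27, limma adjusted p = 0.014) and Tfb1m, the methyltransferase of the small subunit RNA, by 1.10 (SE 0.22, limma adjusted p = 0.0158). Of 13 genes listed with the translation factors, Lrpprc and Slirp among them, 2 fell. These were the initiation factor Mtif2 at -1.07 and the elongation factor Tsfm at -0.97. Of 21 genes listed with the aminoacyl-tRNA synthetases, Qrsl1, Gatb and Gatc among them, 1 fell, Aars2 at -0.59. Of 12 transcription and DNA maintenance genes 1 fell, Tfam, which packages mitochondrial DNA, at -0.97 (SE 0.16, limma adjusted p = 0.00706). None of these lists had a member called higher. Among 9 regulators of mitochondrial biogenesis 2 fell, Myc at -1.52 and the nuclear receptor Esrra at -0.90. Gabpa, Nrf1 and Yy1, whose motifs were searched above, differed by -0.02, -0.22 and 0.16. None of these 3 was called (limma adjusted p = 0.97, 0.706 and 0.675).

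Complex I of the respiratory chain, part of whose core is made by this ribosome, and the cytosolic ribosome gave smaller medians by tag than the mitochondrial ribosome. Of 33 nuclear complex I genes 9 fell and 0 rose, where 7.93% of all genes fell and 11.9% rose, with a median of -0.31, and Ndufa7 fell by 2.30 (SE 0.29, limma adjusted p = 0.0025). Of 43 cytosolic ribosome genes 13 fell and 1 rose, against the same shares, with a median of -0.29. Rps9 of the cytosolic small subunit fell by 1.79 (SE 0.16, limma adjusted p = 0.000621), and Rpl39l, a paralogue of Rpl39, was the gene that rose, at 3.10 (SE 0.29, limma adjusted p = 0.000795). By tumour type none of these lists had a called member. Complex I genes were lower in carcinoma for 29 of 33 genes with a median of -0.32 and cytosolic ribosome genes for 32 of 43 with a median of -0.07. Assembly factors were lower for 18 of 24 with a median of -0.10. In the translation factor list 9 of 13 were lower, with a median of -0.05. In the aminoacyl-tRNA synthetase list 9 of 21 were lower, with a median of 0.02. Whether these medians differ from those of the mitochondrial ribosome was not tested.

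**Figure D4:**
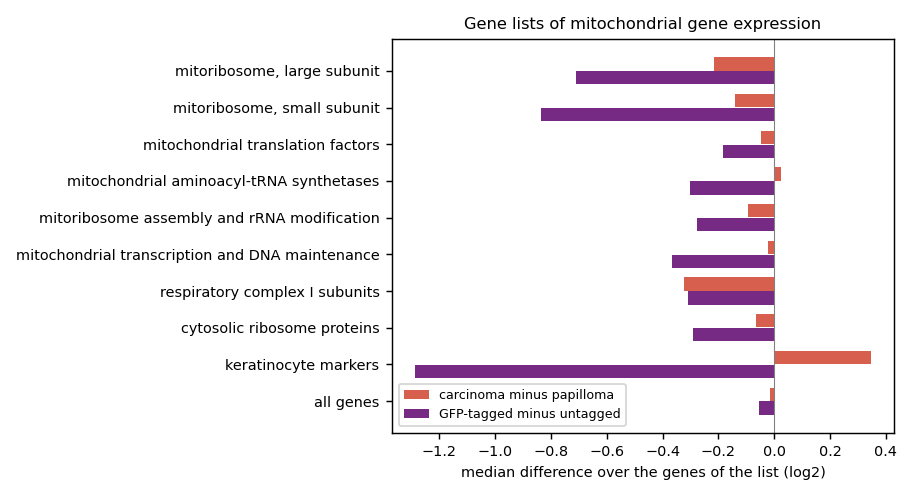
Median log2 difference over the genes of each list, by tumour type (red) and by GFP tag (purple). The bars by tag reach -0.71 and -0.84 for the 2 subunits and -0.18 to -0.37 for the other mitochondrial lists drawn, and the keratinocyte markers lie at -1.29 by tag and 0.35 by tumour type.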

How the data were processed

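RNA of sorted cells was amplified as cDNA and hybridised to Affymetrix mouse PM strip arrays, and RMA normalization was done by the authors, per the labels' protocols. The deposited values are on the log2 scale, as read from their range. No version of RMA is stated in the labels. Of 45101 probe sets, 34958 had 1 gene symbol in the platform annotation of the standard mouse design of the same probe set names, 932 several, and 9211 were unlisted. Symbols were updated through gene identifiers in the RefSeq table (34754 matched). Control probe sets were left out. Differences were fitted with limma 3.58.1 in R 4.3.3 over 18193 genes (threshold 0.05). The fitting code was also run on simulated arrays. Their genes were drawn independently, unlike those of these arrays, so that run does not bear on the calls by tag. The exact permutation tests used all 35 divisions of 4 against 3 arrays. Members, gene lists and motifs were chosen with earlier results of these data known. Members were named by p by tumour type (6 per subunit), by difference by tag (4 per direction and subunit), by p of the interaction (2 per subunit), as Mrps18 paralogues or for disagreeing probe sets. Others named were chosen after their values were seen. Deviations from group means correlated across genes at 0.476, 0.194 and 0.861 for same-numbered arrays, above the limit of 0.1 for pairing, but arrays of different numbers did so too (0.683 for papilloma 1 and carcinoma 2). Alternatives covered probe set choice, scaling, a filter on dim genes, array weights, covariates, the replicate block and each array left out. Figures used matplotlib 3.10.9.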

Additional observations from a re-analysis of the deposited data

Results flagged for a closer look

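Within the 4 carcinoma arrays or the 5 untagged arrays, 11 of 72 sets of values held 1 array far from the rest by Dixon's criterion. The sets were those of the named genes, many of them named for a large difference by tag, and of the subunit means, so the count cannot be read against the 1 in 20 sets that meet the criterion by chance. In 8 of them the array was carcinoma GFP, the 1 tagged array of that group, which lay below the other carcinoma arrays, and these values restate the difference by tag. Mrpl12 had 8.495 there against 10.40 to 10.63, Mrpl35 8.27 against 10.07 to 10.35, Mrpl50 6.86 against 8.79 to 8.96 and Mrpl19 8.004 against 9.57 to 9.87. Mrps16 had 8.70 against 10.13 to 10.28, Mrps35 8.23 against 9.86 to 10.08, Mrps36 7.61 against 8.83 to 9.06 and Mrps18a 7.92 against 8.91 to 9.04. The other 3 concerned carcinoma 3. There Mrps9 had 10.19 against 9.27 to 9.51 in the other untagged arrays, and Mrpl15 had 10.68 against 9.87 to 10.01 in the other carcinoma arrays. The mean of the small subunit genes was 9.22 in carcinoma 3 against 9.58 to 9.70 in the other untagged arrays, although Mrps9 was highest on that same array.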

How the results depend on the processing

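By tumour type 0 genes were called under each of the 16 alternatives to the fit reported. The replicate block left the median differences at -0.21 for large and -0.10 for small subunit genes, with 0 calls, and it changed no other call. No such block could be fitted by tag, since the tag takes the place of a replicate number. Leaving out 1 array moved the medians by tumour type between -0.44 and -0.06 for large and between -0.40 and 0.08 for small subunit genes, and array weights moved them to -0.13 and -0.06. By tag, centring each array on its median gave -0.94 and -1.07. Array weights raised the calls over all genes to 6819 and those of the small subunit to 23. Leaving out 1 array gave 861 to 3955 calls over all genes, 5 to 22 large and 2 to 17 small subunit genes called lower. The causes were not tested beyond the loss of a tagged array. Averaging all probe sets of a gene called 31 members lower, 27 of them shared with the 35 reported. Counting Mrps30 and Mrps18a with the large subunit left the medians by tag at -0.77 and -0.81. A lower carcinoma level under all 17 fits, which share arrays, was found for 22 of 47 large and 7 of 29 small subunit genes.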
